A study of Mus musculus with 29 samples.

Results

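The tRNA-Phe genes of the mouse code for the transfer RNA that carries phenylalanine to the ribosome, and 7 of them were present among the 646 loci for which RPC4 scores were deposited. They were taken by name only, as every locus annotated as a phenylalanine tRNA gene. No score entered this rule, although earlier results of these data were known when it was set. All 7 have the anticodon GAA and a length of 73 bp, and they belong to a larger set of 433 tRNA genes, of which 426 serve other amino acids. RPC4 is a subunit of RNA polymerase III (Pol III), so that its presence on a gene in chromatin immunoprecipitation followed by sequencing (ChIP-seq) marks Pol III on that gene.

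The data came from livers of male C57BL/6 mice aged 12 to 14 weeks, fed at night, from which the larger part of the liver was removed by partial hepatectomy (PH). Liver homogenate was taken before the operation (TP0) or 36, 48 or 60 h after it (TP36, TP48 and TP60), with no other genotype or agent in any group, and 2 RPC4 libraries represent each time point, each from the pooled livers of 3 mice. The labels number the replicates as series only, so p-values measure the spread between these pools, which may be partly technical. There was no sham-operated group among the libraries used here, and time after PH and the operation itself cannot be told apart. In the study PH was always done early in the day, so TP36 and TP60 fell at another time of day than TP48. Time of day and feeding therefore cannot be told apart from the changes at TP36 and TP60 either.

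Pol III makes tRNAs, 5S rRNA and several other small RNAs. A tRNA gene carries its promoter inside the transcribed region: an A box near the start and a B box further downstream are bound by the factor TFIIIC, which brings TFIIIB to the DNA just upstream, and TFIIIB in turn recruits the polymerase. Transcription ends at a run of T residues in the coding strand shortly after the gene. After PH the remaining hepatocytes, which rarely divide in the adult, enter the cell cycle and rebuild the liver mass, a process with a high demand for new protein.

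The genes themselves differed very little. Genes n-Tf3, n-Tf4, n-Tf5, n-Tf6 and n-Tf7 were identical over all 73 bases, and none of the other 426 tRNA genes had this sequence. Gene n-Tf1 had 1 substitution, G57A, and n-Tf2 had 2, C3T and G70A, where the shared sequence's base comes first and positions count from 1 at the 5′ end of the gene. The 3 sequences are shown, 5′ to 3′ on the coding strand and read from the NCBIM37 (mm9) assembly, because 5 genes with the same body had different RPC4 scores. Capitals mark the A box (positions 8 to 19) and the B box (positions 52 to 62).
shared by n-Tf3, n-Tf4, n-Tf5, n-Tf6 and n-Tf7: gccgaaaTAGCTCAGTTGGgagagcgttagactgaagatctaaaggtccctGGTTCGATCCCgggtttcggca
n-Tf1: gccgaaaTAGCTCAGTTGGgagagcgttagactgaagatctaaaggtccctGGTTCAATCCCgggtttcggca
n-Tf2: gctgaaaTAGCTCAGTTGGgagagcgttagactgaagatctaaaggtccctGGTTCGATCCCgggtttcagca

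The letters of the 2 boxes in these genes were searched on both strands of all 433 tRNA genes, with no mismatch allowed. The A box TAGCTCAGTTGG was present in all 7 tRNA-Phe genes and in 6.7% of all tRNA genes, and the B box GGTTCGATCCC in 6 of the 7 and in 5.31%. Substitution G57A of n-Tf1 lies inside the B box, which there reads GGTTCAATCCC, a form present in 1.39% of all tRNA genes. None of the 3 was found on the opposite strand. Such matches describe letters and were not tested for binding of TFIIIC.

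The genes lie at 7 places on 5 chromosomes (mm9 coordinates), all outside annotated protein-coding genes. Gene n-Tf3 (chr10:79711709-79711781, minus strand) starts 85 bp from the transcription start site of Ndufs7, a subunit gene of mitochondrial complex I that is read in the opposite direction. Gene n-Tf6 (chr19:12076726-12076798, plus strand) and n-Tf2 (chr19:12083035-12083107, plus strand) lie 6236 bp apart in 1 tRNA gene cluster. Gene n-Tf4 (chr13:21253274-21253346, plus strand) and n-Tf1 (chr13:21974754-21974826, minus strand) lie on the same chromosome and far apart. The other two are n-Tf7 (chr5:125886425-125886497, minus strand) and n-Tf5 (chr14:118488747-118488819, minus strand). Distances to the nearest protein-coding start site were 18.32 kb for n-Tf4 (Olfr1368), 25.04 kb for n-Tf6 (Osbp), 28.2 kb for n-Tf2 (Olfr1423), 37.35 kb for n-Tf5 (Dct) and 49.2 kb for n-Tf1 (Hist1h2br).

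Outside the gene the copies had little in common. Over the 50 bases before the gene, the GC content was 62% for n-Tf3, 58% for n-Tf5, 52% for n-Tf4, 48% for n-Tf7, 46% for n-Tf1, 36% for n-Tf2 and 26% for n-Tf6, against a median of 42% over all tRNA genes. The upstream sequences of n-Tf3, n-Tf5 and n-Tf6 are shown because these identical genes had, respectively, the highest score before PH, the lowest score of the identical copies, and a change at every time point after PH. Capitals mark CG dinucleotides, of which n-Tf3 had 5, n-Tf5 had 2 and n-Tf6 had 0 (54.3% of all tRNA genes had at least 1).
n-Tf3 upstream: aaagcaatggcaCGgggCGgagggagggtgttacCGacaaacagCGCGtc
n-Tf5 upstream: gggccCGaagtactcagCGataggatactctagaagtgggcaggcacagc
n-Tf6 upstream: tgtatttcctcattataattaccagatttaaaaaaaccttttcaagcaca

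A run of at least 4 T residues, the signal at which Pol III terminates, was present within 30 bases after each of the 7 genes and after 82.9% of all tRNA genes. It began 3 bases after the end of n-Tf2, 4 bases after n-Tf3 and n-Tf6, 6 after n-Tf5, 8 after n-Tf1 and n-Tf7 and 14 after n-Tf4, against a median of 8 over all tRNA genes with such a run. The first 30 bases downstream of the same 3 identical genes are shown, with the T run in capitals.
n-Tf3 downstream: agtgTTTTTaactcattgatgaacctgtct
n-Tf5 downstream: gttaacTTTTagttttaatttggcggaatg
n-Tf6 downstream: gtgaTTTTatacggcaacacaaccacgtgt

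Each RPC4 score is a log2 ratio of ChIP fragments over input fragments, counted over the gene extended by 150 bp on each side, with a pseudocount of 16 added to both by the authors. A cutoff was given for each library in the header of the deposited table (0.81 to 1.55), and a locus above it is called occupied here. Fragment counts were not used here, so the depth behind each score is unknown. Before PH the libraries of the pair were alike, with a median difference of 0.01 over the 492 loci occupied in at least 1 library, whereas replicate 1 was higher by a median of 0.91 at TP36 and lower by 0.40 at TP48 and by 0.86 at TP60. These shifts run through the whole library and are larger than many of the differences described. The median score of the 344 loci occupied in all 8 libraries was 4.12 and 4.22 at TP0 and 4.67 to 6.04 after PH. Because the material was whole liver, fewer cells with a polymerase on the gene and less polymerase per cell cannot be told apart.

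All of the genes except n-Tf2 were occupied in all 8 libraries. Gene n-Tf2 was occupied in 7, lying just below the cutoff of 0.84 in replicate 1 at TP0 (0.79) and just above the cutoff of 1.33 in replicate 2 (1.38). At most 1.41% of the score of a tRNA-Phe gene in any library came from fragments that matched several places in the genome.

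Gene n-Tf3 had the highest score of the 7 before PH and the smallest change at each later time point. Its scores were 5.39 and 5.30 before PH, 5.76 and 4.92 at TP36, 5.99 and 6.09 at TP48, and 5.43 and 6.15 at TP60 (replicates 1 and 2). Replicate 2 at TP36 lay below both TP0 libraries and the other 5 libraries after PH lay above them, so the groups overlapped. The change against TP0 was -0.01 ± 0.45 (standard error, SE) at TP36, 0.70 ± 0.45 at TP48 and 0.44 ± 0.45 at TP60. None of these passed the test in limma (q = 0.506, 0.10 and 0.194). The 95% interval of the TP60 change ran from -0.54 to 1.43. The window of n-Tf3 shares 178 bp with that of n-Tn7, a tRNA-Asn gene with a higher mean score at TP0 (5.67). The scores of these genes are thus partly the same fragments, which applies to every n-Tf3 value below. No other tRNA-Phe gene shared its window with a locus of the table.

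Gene n-Tf6, with the same 73 bases, had scores of 4.26 and 4.30 before PH, 6.20 and 5.68 at TP36, 5.79 and 5.96 at TP48, and 5.56 and 6.93 at TP60. All 6 libraries after PH lay above both TP0 libraries with a gap of more than 1 on the log2 scale. The score rose at each time point, by 1.66 ± 0.49 (q = 0.0237), 1.59 ± 0.49 (q = 0.0169) and 1.96 ± 0.49 (q = 0.00595), the last corresponding to 3.90-fold on the scale of the ratio. Without replicate 2 of TP60 the rise there was 1.28 (2.43-fold), and without replicate 1 it was 2.65 (6.26-fold).

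Gene n-Tf1, which carries G57A in its B box, rose at the same 3 time points. At TP0 its scores of 3.99 and 3.94 were above those of n-Tf5 and n-Tf2 only, and they were 6.23 and 5.03 at TP36, 5.73 and 6.16 at TP48, and 5.53 and 6.78 at TP60. No library after PH overlapped TP0, although the replicates at TP36 and TP60 were more than 1 apart. The rise was 1.66 ± 0.54 (q = 0.0319) at TP36, 1.98 ± 0.54 (q = 0.0101) at TP48 and 2.19 ± 0.54 (q = 0.00539, 4.56-fold) at TP60. With 1 of the replicates of the later time point left out, the value at TP36 was 1.06 or 2.27, and that at TP60 was 1.56 or 2.82 (2.96-fold or 7.04-fold).

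Gene n-Tf2, the copy with C3T and G70A, was the weakest. Its scores were 0.79 and 1.38 before PH, 3.05 and 1.71 at TP36, 2.96 and 3.51 at TP48, and 2.81 and 4.29 at TP60. The groups did not overlap, but replicate 2 at TP36 was close to the TP0 libraries. The change at TP36, 1.29 ± 0.60, did not pass the test (q = 0.0869), and n-Tf2 rose by 2.15 ± 0.60 (q = 0.0109) at TP48 and by 2.46 ± 0.60 (q = 0.00513, 5.52-fold) at TP60. The TP60 value was 1.72 (3.30-fold) without replicate 2 and 3.20 (9.22-fold) without replicate 1.

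Genes n-Tf7 and n-Tf4 had like scores in every library, with n-Tf7 higher in 7 of 8 by a mean of 0.16 ± 0.14 (SD; p = 0.0156, adjusted p = 0.0273 over all 21 pairs of genes, exact permutation test). Scores of n-Tf7 were 4.64 and 4.73 before PH, 6.01 and 5.07 at TP36, 5.75 and 6.20 at TP48, and 5.66 and 6.29 at TP60. Those of n-Tf4 were 4.44 and 4.64, 5.69 and 5.03, 5.58 and 6.13, and 5.29 and 6.30 at the same time points. In both genes every library after PH was higher than both TP0 libraries. Changes at TP36 did not pass the test (0.85 ± 0.46, q = 0.115 for n-Tf7 and 0.82 ± 0.48, q = 0.132 for n-Tf4). At TP48 n-Tf7 rose by 1.29 ± 0.46 (q = 0.0280) and n-Tf4 by 1.32 ± 0.48 (q = 0.0293), and at TP60 the rises were 1.29 ± 0.46 (q = 0.0260) and 1.26 ± 0.48 (q = 0.0311).

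Gene n-Tf5 has the shared gene sequence but a score far below the other identical copies. Its scores were 2.99 and 2.78 before PH, 4.13 and 3.39 at TP36, 4.29 and 3.34 at TP48, and 3.40 and 4.57 at TP60. All 6 libraries after PH were higher than TP0, the nearest being 3.34 against 2.99. The change passed the test at no time point, with 0.88 ± 0.53 (q = 0.141), 0.93 ± 0.53 (q = 0.0818) and 1.10 ± 0.53 (q = 0.0581).

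**Figure D1:**
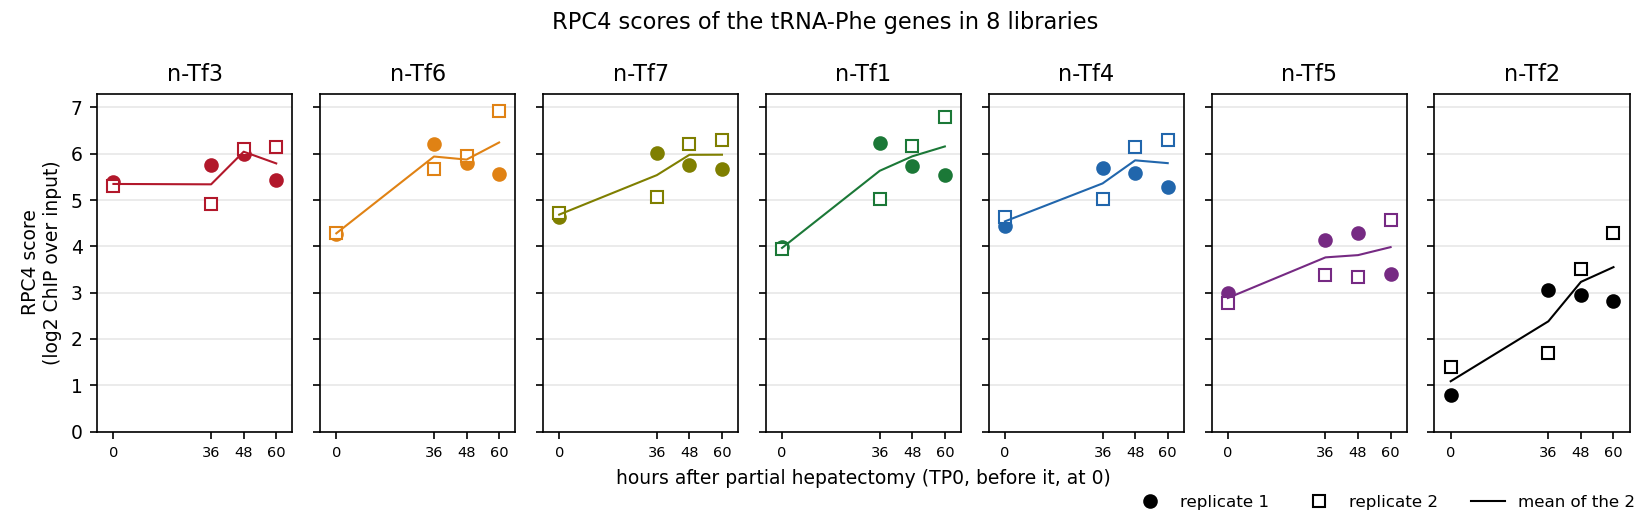
RPC4 score (log2 ChIP over input, vertical axis) of each tRNA-Phe gene against hours after PH, with replicate 1 as filled circles, replicate 2 as open squares and a line through the mean of the pair. The TP0 replicates of n-Tf1 and n-Tf6 are nearly on top of each other, whereas the TP60 replicates are more than 1 apart, and n-Tf3 starts at 5.39 and 5.30 and stays within 4.92 to 6.15.

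In all, 2 of the 7 genes (n-Tf1 and n-Tf6) rose at TP36, when 29% of the 487 loci occupied at either time point rose. At TP48, 5 genes rose (all but n-Tf3 and n-Tf5), beside 51.5% of 480 loci, and at TP60 the same 5, beside 57.3% of 487 loci. Over the whole table of 646 loci these percentages were 21.8, 38.2 and 43.2, and no locus fell. Among the 291 occupied tRNA genes of other kinds they were 34.7, 61.9 and 66.7. The 3 comparisons share the TP0 libraries and are not independent. Median changes of the 7 genes were 0.88, 1.32 and 1.29 at the 3 time points, close to 0.97, 1.29 and 1.36 over the 291 occupied tRNA genes of other kinds. For 6 of the 7 genes, all but n-Tf3, the data had all 6 libraries after PH above both TP0 libraries, as did 58.5% of the 492 occupied loci.

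The number of called genes rested on single libraries, and so did the share of all occupied loci called. At TP36 it was 0 without replicate 1 or 2 of TP0 or replicate 1 of TP36, when 10.3%, 8.01% and 10.2% of occupied loci were called. It was 6 (all but n-Tf3) without replicate 2 of TP36, when 68.2% of loci were called, and 1 (n-Tf6) without either TP48 library (20.1% of loci), while n-Tf2 was added without either TP60 library (34.5%). For TP48, leaving out replicate 1 or 2 of TP0 or replicate 2 of TP48 gave 0 genes beside 20.7%, 11.7% and 9.83% of loci, and leaving out replicate 1 of TP48 gave 2 (n-Tf1 and n-Tf2) beside 31.1%. For TP60 the count was 3 (n-Tf1, n-Tf2 and n-Tf6) without replicate 1 or 2 of TP0 (32.9% and 24.8% of loci) and 0 without replicate 2 of TP60 (21.2%). There n-Tf4 was lost without either TP48 library (42.1%), and n-Tf5 was added without replicate 1 of TP60 (80%) or either TP36 library (68.2%). With Benjamini-Hochberg adjustment of the same limma fit, 1 gene passed at TP36 (n-Tf6, adjusted p = 0.0465; 18.9% of loci) and 3 at TP48 and at TP60 (n-Tf1, n-Tf2 and n-Tf6; 27.7% and 36.1% of loci).

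The time points after PH were also compared with each other, to ask whether the scores of the 7 genes moved further once the first change was made. None of the 7 genes and 0 of the 646 loci differed between TP48 and TP36, TP60 and TP36, or TP60 and TP48 by limma. With an unadjusted p under 0.05 there were 0 tRNA-Phe genes in each comparison and 5, 7 and 15 of the occupied loci. With Benjamini-Hochberg adjustment the count of tRNA-Phe genes was likewise 0. The differences of the 7 genes ranged from -0.07 to 0.85 (TP48 minus TP36), from 0.22 to 1.17 (TP60 minus TP36) and from -0.25 to 0.37 (TP60 minus TP48).

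**Figure D2:**
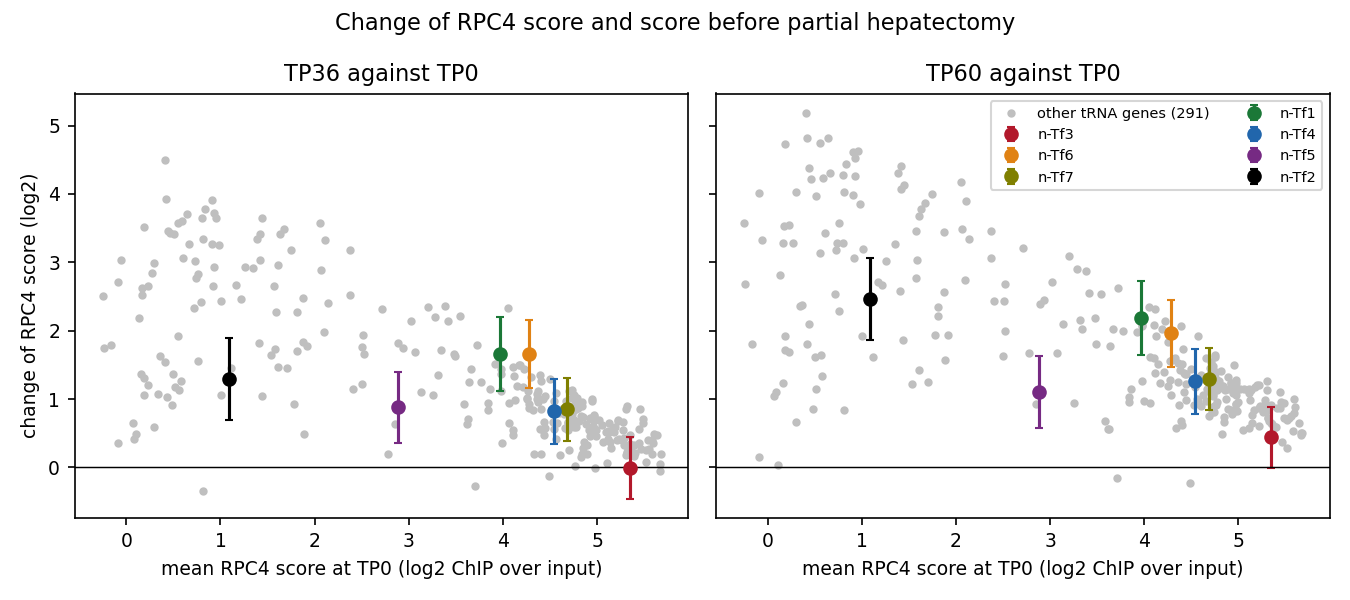
Change of the RPC4 score (log2, vertical axis) at TP36 and TP60 against the mean score at TP0 for the 7 tRNA-Phe genes (coloured, bars are the SE) and the 291 other occupied tRNA genes (grey). Gene n-Tf3, at 5.35 on the horizontal axis, lies near the bottom of the grey cloud at TP36 (-0.01) and at TP60 (0.44). Genes n-Tf1 and n-Tf6 lie in the upper part of the cloud.

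Position of the 7 genes among tRNA genes of like occupancy was described next, since tRNA genes with low scores at TP0 lie higher in the plot of changes. The score at TP0 enters both quantities, so these positions are given without a test. At TP36 the change of n-Tf3 was smaller than that of each of the 46 other tRNA genes whose TP0 score lay within 0.25 of its own, which ran from 0.07 to 0.90 (median 0.40). At TP48 13 of those 46, and at TP60 2 of them, had a smaller change than n-Tf3. Among all 298 occupied tRNA genes, 4 had a smaller change than n-Tf3 at TP36. One was n-Tn7 (-0.06), which shares part of the n-Tf3 window and whose TP0 score of 5.67 lay outside the range of 0.25. The rise of n-Tf6 at TP36 was larger than the change of 37 of the 38 tRNA genes near its TP0 score (median 1.00), and that of n-Tf1 larger than 20 of 22 (median 1.19). Of the 13 tRNA genes near the TP0 score of n-Tf2, 1 had a smaller change at TP36 (median 2.94) and 2 at TP60 (median 3.20). All 7 tRNA genes near the TP0 score of n-Tf5 had larger changes at TP48 (median 2.25), whereas 2 of the 7 had smaller changes at TP36 and 1 at TP60. At TP48 and at TP60, n-Tf6 exceeded 32 of its 38 genes and n-Tf1 exceeded 19 of its 22. Gene n-Tf7 exceeded 44, 51 and 44 of 60 at the 3 time points, and n-Tf4 exceeded 30, 44 and 33 of 57.

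The shift of whole libraries can be taken out by subtracting the median of the loci occupied in all 8 libraries, which had moved by 0.98, 1.29 and 1.40 from TP0 to TP36, TP48 and TP60. Relative to that median n-Tf3 fell by 0.99 at TP36 (q = 0.0298) and by 0.96 at TP60 (q = 0.0100), whereas its difference of -0.60 at TP48 did not pass (q = 0.0518). Of the occupied loci 3.49% fell in this way at TP36, 8.54% at TP48 and 18.3% at TP60. Gene n-Tf1 was still higher by 0.68 at TP48 (q = 0.0358) and by 0.79 at TP60 (q = 0.0178), n-Tf2 by 0.85 (q = 0.0286) and 1.06 (q = 0.0106), and n-Tf6 by 0.56 at TP60 (q = 0.0494). Loci higher relative to the median made up 15.4%, 19.8% and 25.3% at the 3 time points. With Benjamini-Hochberg adjustment, n-Tf3 (adjusted p = 0.0361) and n-Tf2 at TP60 passed. The direction of n-Tf3 at TP48 and TP60 depends on whether the shift of the library is kept or removed, and genes n-Tf4, n-Tf5 and n-Tf7 lay within 0.37 of 0 once it was removed.

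Whether any gene changed more or less than its family was asked within each library, as its score minus the mean of the other 6 genes. Gene n-Tf3 was above the others by 1.87 and 1.67 at TP0 and by 0.29 to 0.98 in the 6 libraries after PH. Gene n-Tf1 was above them by 0.24 and 0.09 at TP0 and by 0.67 to 1.09 after PH. In neither gene did the groups overlap. The difference of the means was -1.10 for n-Tf3 and 0.72 for n-Tf1, each with p = 0.0357 by exact permutation of the 8 libraries (two-sided), the smallest p that 28 splits can give, and adjusted p = 0.125 over the 7 genes. With 7 genes this smallest p falls under the adjusted threshold of 0.05 only if at least 6 genes reach it. For n-Tf6 the difference was 0.48 and for n-Tf2 0.75 (each p = 0.107, exact permutation test), and for n-Tf4, n-Tf5 and n-Tf7 it was -0.23, -0.42 and -0.21 with larger p. None of the 7 passed, and none did when the median of the other tRNA genes was the reference.

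**Figure D3:**
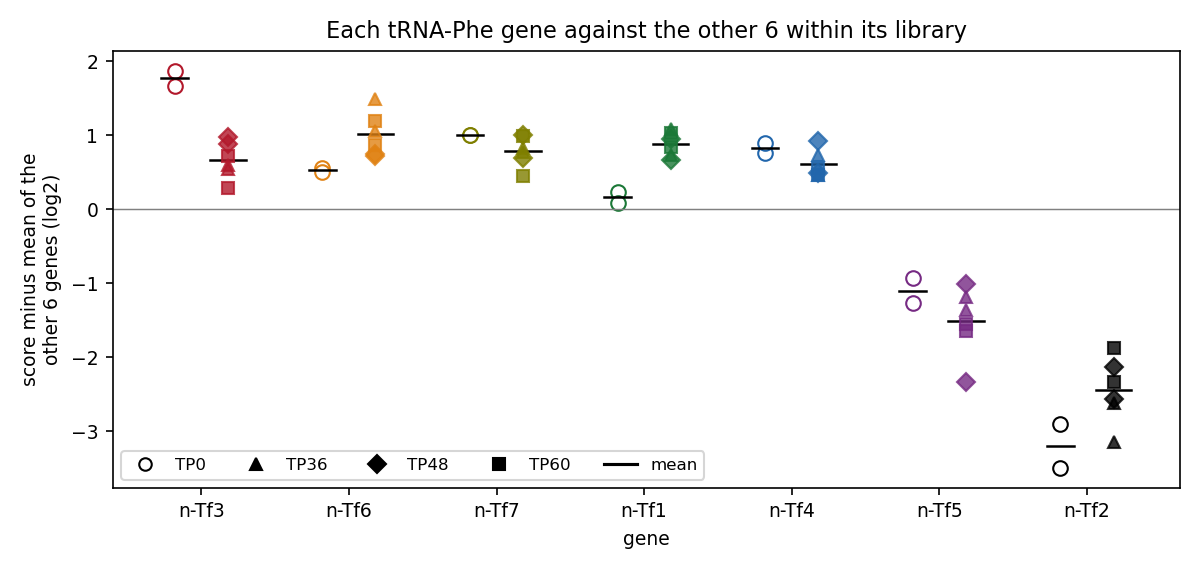
Score of each tRNA-Phe gene minus the mean of the other 6 in the same library (log2, vertical axis), with the 2 TP0 libraries as open circles, the 6 libraries after PH as filled symbols by time point and the means as black bars. The mean of n-Tf3 is 1.77 at TP0 and 0.67 after PH, that of n-Tf1 is 0.16 and 0.89, and n-Tf7 lies between 0.46 and 1.00 in all 8 libraries.

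The makeup of the family was described as the share of each gene in the summed ChIP over input ratio of the 7 genes, which was 134 and 135 at TP0 and 194 to 503 after PH. The share of n-Tf3 was 30.3% ± 1.67 (SD, n = 2) before PH and 15.6% ± 0.10, 19.9% ± 1.81 and 15.9% ± 2.59 at the later time points in turn. Shares of n-Tf6 were 14.5% ± 0.12, 23.9% ± 3.60, 17.6% ± 1.04 and 21.7% ± 3.43, and those of n-Tf1 were 11.6% ± 0.39, 19.3% ± 3.52, 18.5% ± 1.31 and 20.4% ± 2.09. For n-Tf3 each library after PH (14.1% to 21.2%) lay below both TP0 libraries, and for n-Tf6 and n-Tf1 each lay above them. Shares of n-Tf2 were 1.61% ± 0.45 at TP0 and 3.38% ± 0.72 at TP60, and its share in replicate 2 at TP36, 1.68%, lay within the TP0 range of 1.29% to 1.93%. Shares of n-Tf7, n-Tf4 and n-Tf5 after PH overlapped those at TP0. Shares add up to 100%, so that a lower share of 1 gene goes with a higher share of others.

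**Figure D4:**
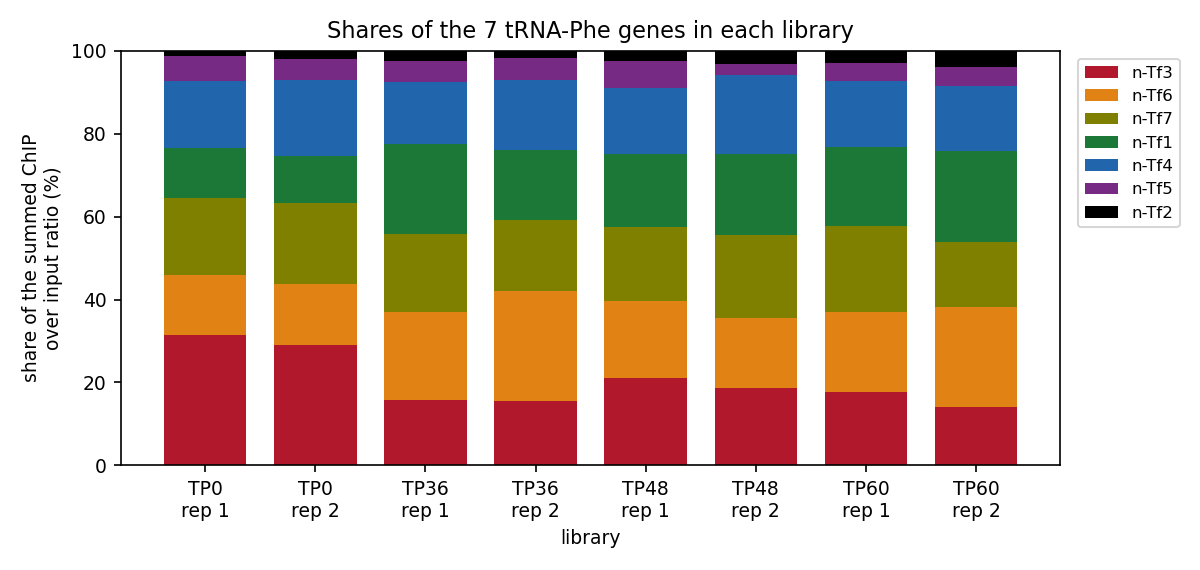
Share (%) of each tRNA-Phe gene in the summed ChIP over input ratio of the 7 genes in each of the 8 libraries, as stacked bars. The n-Tf3 segment takes 31.5% and 29.1% in the TP0 libraries and 14.1% to 21.2% after PH, while n-Tf5 and n-Tf2 are the thin segments at the top of every bar.

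Over the 8 libraries the order of the mean scores was n-Tf3 (5.63), n-Tf6 (5.58), n-Tf7 (5.54), n-Tf1 (5.42), n-Tf4 (5.39), n-Tf5 (3.61) and n-Tf2 (2.56). This order pools the time points and differs from that at any of them for the first 5 genes. At TP0 it was n-Tf3 (5.35), n-Tf7 (4.68), n-Tf4 (4.54), n-Tf6 (4.28) and n-Tf1 (3.97), and at TP60 it was n-Tf6 (6.24), n-Tf1 (6.16), n-Tf7 (5.98), n-Tf4 (5.80) and n-Tf3 (5.79). Neighbours among these 5 genes did not differ beyond the spread of their within-library difference over the 8 libraries, which includes changes with time. Differences were 0.05, 0.04, 0.12 and 0.04, with p from 0.422 to 0.852 by exact sign-flip permutation (two-sided). The first of these differences averages values of opposite sign, since n-Tf3 minus n-Tf6 ran from 1.13 at TP0 to -0.78 after PH. Gene n-Tf4 was higher than n-Tf5 in 8 of 8 libraries, by 1.78 ± 0.46 (SD; p = 0.00781, adjusted p = 0.0164 over 21 pairs, exact permutation test). Gene n-Tf5 was higher than n-Tf2 in 7 of 8 libraries, by 1.05 ± 0.78 (p = 0.0156, adjusted p = 0.0273, exact permutation test), the exception being replicate 2 at TP48. With any 1 library left out other than this replicate, only 1 of these 2 differences passed. Among the 433 tRNA genes ranked by score in each library, the median rank of n-Tf6 was 73.5 (range 8 to 146), that of n-Tf3 was 99 (26 to 151) and that of n-Tf5 was 237 (190 to 264). These medians pool the time points too. At TP0 n-Tf3 ranked 27 and 26, and n-Tf6 ranked 146 and 134.

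The 5 identical copies did not share 1 level. In each library n-Tf5 was the lowest of them and the highest exceeded it by 1.71 to 2.87, or 3.27-fold to 7.29-fold. The highest copy was n-Tf3 in both TP0 libraries and in replicate 1 of TP48, n-Tf6 in both TP36 libraries and in replicate 2 of TP60, and n-Tf7 in replicate 2 of TP48 and replicate 1 of TP60. Beside n-Tf5 there was no other Pol III locus of the table within 10 kb, whereas each of the other 6 genes had between 1 and 7 such neighbours. Its upstream sequence held 58% GC, between those of n-Tf3 and n-Tf4, and its run of 4 T residues was as long as that of n-Tf6. The part of these features in its level was not tested.

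Loci around the genes were examined for whether a tRNA-Phe gene and its neighbours had like scores. The window of n-Tf3 shares 178 bp with that of n-Tn7, a tRNA-Asn gene 122 bp away, so their scores are partly the same fragments. Gene n-Tn7 had a mean score of 5.67 at TP0 and differed by -0.06, 0.39 and 0.51 at the 3 later time points, none past the test. Gene n-Ti10, a tRNA-Ile gene 778 bp from n-Tf1 and with no shared window, had 3.72 at TP0 and rose by 1.79, 2.23 and 2.62 (q = 0.0197, 0.00430 and 0.00143). The 4 neighbours of n-Tf7 (n-Ta39, n-Td15, n-Td14 and n-Ta34) had 4.85 to 5.28 at TP0, and 0 of them rose at TP36 and 1, n-Ta34, at TP60. Of the 6 neighbours of n-Tf4 (n-Te11, n-Tm14, n-Tk28, n-Tm15, n-Tl7 and n-Tl5; 3.07 to 5.10 at TP0), 1 rose at TP36 and 5 at TP60. Of all occupied loci 29% rose at TP36 and 57.3% at TP60, and of occupied tRNA genes other than tRNA-Phe 34.7% and 66.7%.

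The chromosome 19 cluster held the greatest contrast. Gene n-Tf2 had a mean of 1.09 at TP0 while the 7 loci within 10 kb of it, n-Tf6 and 6 tRNA genes for other amino acids (n-Tk29, n-Tk30, n-Tl26, n-Tr21, n-Tv21 and n-Tv22), had 3.48 to 4.77. Of these 7, 2 rose at TP36 (n-Tf6 and n-Tv22) and 6 at TP60, beside 29% and 57.3% of all occupied loci. The 7 changes at TP60 ran from 0.97 for n-Tk29, which did not pass, to 2.19 for n-Tv22. At TP60 n-Tf2 reached 3.55 ± 1.05 (SD, n = 2), about the TP0 score of n-Tv22 (3.48).

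**Figure D5:**
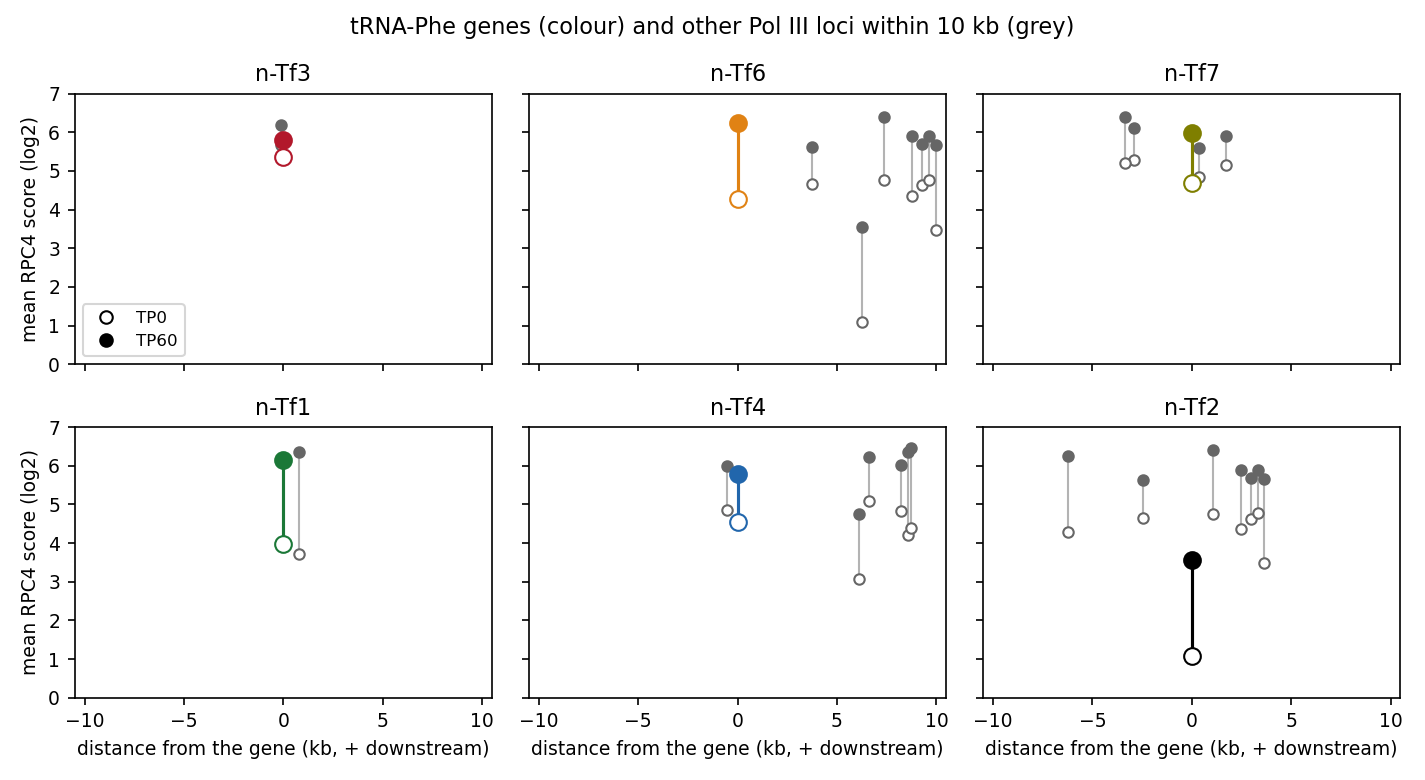
Mean RPC4 score (log2, vertical axis) at TP0 (open) and TP60 (filled) of 6 tRNA-Phe genes (coloured, at 0) and of the other Pol III loci within 10 kb of each (grey) against distance in kb. Gene n-Tf2, also the low grey point 6.24 kb downstream of n-Tf6, goes from 1.09 to 3.55 among neighbours that start at 3.48 to 4.77, and n-Tf5 is not drawn because it has no neighbour in this range.

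Loci with the most similar scores were sought by Euclidean distance over the 8 libraries among 485 occupied loci other than tRNA-Phe genes. The nearest to the median profile of the 7 genes were n-Tv17 (distance 0.35), n-Ta29 (0.47) and n-Tq6 (0.49), genes for tRNA-Val, tRNA-Ala and tRNA-Gln. Gene by gene, the nearest were n-Tr19 for n-Tf3 (0.57), n-Tt6 for n-Tf6 (0.71), n-Tv21 for n-Tf7 (0.38), n-Ti10 for n-Tf1 (0.61), n-Tr21 for n-Tf4 (0.38) and n-Tc18 for n-Tf2 (1.00). For n-Tf5 it was a B2_Mm1a SINE (1.00), a repeat that carries a Pol III promoter. In 1 case, that of n-Tf1, the most similar locus was also a neighbour within 10 kb.

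Genes for the tRNAs of the other aromatic amino acids served as further comparison. All 10 tRNA-Tyr genes and 7 of 8 tRNA-Trp genes were occupied in at least 1 library, with median scores at TP0 of 4.22 and 3.86 against 4.28 for the 7 tRNA-Phe genes. Rises passed the test for 4, 6 and 8 tRNA-Tyr genes and for 1, 3 and 4 tRNA-Trp genes at TP36, TP48 and TP60. These were 40%, 60% and 80% of the occupied tRNA-Tyr genes and 14.3%, 42.9% and 57.1% of the occupied tRNA-Trp genes. Over all occupied loci the shares were 29%, 51.5% and 57.3%. Median changes at TP60 were 1.66 for tRNA-Tyr, 1.10 for tRNA-Trp and 1.29 for tRNA-Phe genes. No difference between these families was tested.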

How the data were processed

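RPC4 ChIP and input libraries of mouse liver were sequenced as paired ends. Per the study's methods, the authors aligned fragments to NCBI37/mm9 with ELAND and fetchGWI, scaled fragment totals to the median over samples, and deposited a log2 ratio of ChIP over input (pseudocount 16) for each locus extended by 150 bp on each side. The deposited percent columns give the share of a score from fragments with multiple matches. Processing notes also name bedtools. Such scores keep no read counts, and the pseudocount compresses changes of weakly bound loci.

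All 646 loci were fitted with limma 3.58.1 (R 4.3.3), with 1 mean for each of the 4 time points over the 8 RPC4 libraries and empirical Bayes moderation. Two-sided p-values were turned into q values with a smoothing spline (3 df) for the share of true nulls. Calls needed q under 0.05 and, in 1 or more libraries of the pair of time points, a score higher than that library's cutoff. At TP48 and TP60 this made as many calls as an unadjusted p under 0.05 among occupied loci (247 and 279). On simulated scores with independent noise at each locus, the fit was checked to recover known changes. That simulation held no shift of whole libraries, so the check does not cover the shifts between the real replicates. Exact permutation tests used pandas 2.3.3 and numpy 2.4.6 with Python 3.11.15, and scipy 1.17.1 gave the t quantile of the 95% intervals. Sequences were read with samtools 1.23.1 from the NCBIM37 genome, and start sites came from GENCODE M1. Figures were drawn with matplotlib 3.10.9.

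Named loci were all 7 tRNA-Phe genes, every locus within 10 kb of one, and the nearest locus in scores (for the median profile, the nearest 3). The genes, lists and tests were chosen with earlier results of these data known. Alternatives were Benjamini-Hochberg adjustment, a replicate block, a fit of the compared time points only, library centring, occupied loci only, leaving out loci with over 50% multiple matches, a trended prior, and leaving out each library. RPB2, H3K4me3, H3 and input libraries were not analysed here.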

Additional observations from a re-analysis of the deposited data

How the results depend on the processing

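Counts of tRNA-Phe genes called at TP36, TP48 and TP60 against TP0 were 2, 5 and 5. They became 1, 3 and 3 with Benjamini-Hochberg adjustment. With libraries centred they became 1 (n-Tf3, lower), 2 and 4, beside 18.9%, 28.3% and 43.5% of occupied loci. Centring and Benjamini-Hochberg adjustment together, an alternative chosen after seeing the data, gave 0, 0 and 2, beside 14.2%, 16% and 23%. Leaving out 1 library at a time gave 0 to 6, 0 to 5 and 0 to 6. Fits of the compared time points only gave 3, 7 and 6, beside 31%, 89.8% and 61.4% of occupied loci, and fits of occupied loci only gave 3, 7 and 7, beside 52%, 100% and 99.6%. The trended prior and leaving out loci with over 50% multiple matches changed no call. Comparisons between later time points gave 0 under every alternative run. The count of neighbours in level that differed was 1 to 2 with 1 library left out. That of genes whose rise differed from the rest was 0, and leaving out a library says nothing of its stability, since the smallest p was then 0.143 without a TP0 library and otherwise passes only if all 7 genes reach it.

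With a replicate block the counts stayed at 2, 5 and 5, beside 34.3%, 41% and 49.3% of occupied loci. The replicate number is a series number in the labels, and samples of 1 number deviated together only in part (correlations of replicate 1 deviations between time points from -0.28 to 0.53), so the numbers were not taken to pair the libraries.

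Directions turned in 10 of 21 changes with centring, which gave n-Tf3 -0.60 at TP48 and -0.96 at TP60, n-Tf4 -0.16 at TP36 and -0.14 at TP60, n-Tf5 -0.10, -0.37 and -0.30 at the 3 time points, and n-Tf7 -0.13, -0.0023 and -0.11. Centring subtracts the rise of the median locus. The change of n-Tf3 at TP36 ran from -0.43 to 0.41 with 1 library left out, positive without replicate 1 of TP0 (0.04) or replicate 2 of TP36 (0.41). With 2 libraries a time point, a lone library left after omission was assumed to vary like the others.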
